A study of Mus musculus with 6 samples.

Results

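The proteins that give the red blood cell its blood group antigens, its Rh complex and its cell contacts were followed through 9 of their genes in differentiating erythroid cells: Gypc, Rhag, Rhd, Kel, Icam4, Ermap, Cd47, Bsg and Aqp1. They were chosen by name, as known red cell surface proteins, out of 48709 genes in the count table, and 8 of the 9 had enough reads to be tested among 12722 genes. The cells were G1E-ER4, a mouse line of immature erythroblasts in which GATA1 can be switched on. They came from embryonic stem cells, and their GATA1 is joined to the hormone-binding part of the estrogen receptor, so that it enters the nucleus and starts differentiation once tamoxifen is added. The 3 CHD4-APR libraries came from cells given a peptide copy of the aggregation-prone region in the C-terminus of the chromatin remodeler CHD4, joined to the Tat sequence, and the 3 CTRL libraries from cells given a stretch of alanines joined to the same Tat sequence. Both peptides were used at 10 μM for 2 h, and cells of both groups then received tamoxifen for 28 h in a medium with Kit ligand and erythropoietin. The tamoxifen concentration is given as 100 nM in the growth protocol and as 100 μM in the design text. All libraries are of the single G1E-ER4 line, and the labels do not say whether replicates were separate cultures, so the p-values measure the spread between these libraries.

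The red cell membrane is studded with proteins that were first known as blood group antigens. RhAG and Rh proteins form a complex that belongs to the ammonium transporter family and sits next to the anion exchanger, while glycophorin C ties the membrane to the skeleton through protein 4.1. Kell, ICAM-4, ERMAP, CD47, basigin and aquaporin 1 serve as an endopeptidase, adhesion and immune signals, a partner of lactate transporters and a water channel, and most of these genes are switched on as erythroblasts mature under GATA1.

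Total counts lay between 41687482 and 49784177 per library, and the TMM normalization factors were 0.968 to 0.994 in CTRL and 1.01 to 1.02 in CHD4-APR libraries, so they did not overlap between the groups. The erythroid label was checked on 10 marker genes, all of which passed the filter on low counts, and their summed level was 65480 to 71040 normalized CPM (counts scaled to TMM-normalized library size) in CTRL and 54910 to 58840 in CHD4-APR libraries, led by Hbb-bs, an adult beta globin gene. By edgeR (FDR under 0.05), 5 of these markers fell and 2 rose with the CHD4-APR peptide (2 and 1 with the length and GC correction), where 17.8% of all tested genes fell and 20.4% rose (16.2% and 11.8% with the correction). The 2 that rose, named after their values were seen, were Tfrc (log2 fold change 0.26, FDR 0.00390) and Gata1 (0.21, FDR 0.00214). The 1 marker that was higher with the correction was Gata1, at 0.35 (FDR 7.22e-05 by the same test). The part of these shifts in the results below was not tested. Markers of other cells had summed levels far below those of the erythroid markers: 10 genes of granulocytes and monocytes summed to at most 4.96 CPM, 8 of megakaryocytes to at most 50.2, 6 of mast cells and basophils to at most 0.604, 6 of lymphocytes to at most 0.604 and 5 of embryonic stem cells to at most 0.182. The megakaryocyte sum was 47.6 to 50.2 CPM in CTRL and 41.2 to 46.8 in CHD4-APR libraries, near the level of Rhag, and of the 4 tested markers Gp9, named after its value was seen, was lower (-0.31, FDR 0.00986 by edgeR) and was not called with the correction (-0.11). Its part in the results was not tested. The leading genes of these lists were Csf1r, Itga2b, Cpa3, Cd79a and Dppa5a, while Mpo, Vwf, Cd3e and Pou5f1 had no read in any library. A further property of all libraries touched the members. The change between the groups followed the GC content and length of transcripts, so that the median log2 fold change over all tested genes was 0.20 for the 3170 genes with 28.1 to 44.7% GC and -0.15 for the 3169 genes with 54.35 to 83.15% GC. Each member is therefore also given after this trend was removed. Whether the trend is technical or part of the response to the peptide was not tested.

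The start regions of the 4 members whose promoters are shown here carry the word that GATA factors recognise, and they are printed because GATA1 is the factor that tamoxifen activates in these cells. Capitals mark the words AGATAA or TGATAA on either strand and would mark CCNCNCCC, the core of the boxes bound by KLF1 and related factors, which the printed stretches do not hold. The sequences are from RefSeq on GRCm38.p6, run 5′ to 3′ along the gene and end before the gene start in GENCODE, which for Rhag, Kel and Ermap lies before the RefSeq start, so that 227, 236 and 234 of the 250 bases before the RefSeq start are printed.
Rhag promoter, chr17:40810899-40811125, plus strand: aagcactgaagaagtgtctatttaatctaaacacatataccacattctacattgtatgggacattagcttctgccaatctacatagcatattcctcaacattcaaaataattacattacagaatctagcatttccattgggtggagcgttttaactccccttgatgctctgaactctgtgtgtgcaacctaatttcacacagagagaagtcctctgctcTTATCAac
Rhd promoter, chr4:134864286-134864535, plus strand: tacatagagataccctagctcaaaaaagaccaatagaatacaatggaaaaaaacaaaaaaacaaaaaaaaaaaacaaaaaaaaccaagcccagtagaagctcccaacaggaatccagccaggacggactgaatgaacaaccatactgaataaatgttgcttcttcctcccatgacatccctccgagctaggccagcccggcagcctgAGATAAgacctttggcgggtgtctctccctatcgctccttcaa
Kel promoter, chr6:41704340-41704575, minus strand: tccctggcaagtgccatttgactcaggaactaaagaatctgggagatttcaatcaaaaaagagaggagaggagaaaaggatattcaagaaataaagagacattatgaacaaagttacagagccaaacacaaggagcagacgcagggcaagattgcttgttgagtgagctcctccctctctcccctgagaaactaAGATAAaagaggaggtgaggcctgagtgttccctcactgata
Ermap promoter, chr4:119190012-119190245, minus strand: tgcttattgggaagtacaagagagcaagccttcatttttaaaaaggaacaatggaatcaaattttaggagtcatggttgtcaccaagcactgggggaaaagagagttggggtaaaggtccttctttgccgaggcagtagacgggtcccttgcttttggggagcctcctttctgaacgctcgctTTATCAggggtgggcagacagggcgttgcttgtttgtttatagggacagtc

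The GATA word starts at position -31 in Rhag, -43 in Rhd, -56 in Kel and -67 in Ermap, counted from the RefSeq start and not from the end of the printed stretch. In Kel a second word, at -19, is cut by the end of the printed stretch, and in Icam4, whose window is not printed, a word starts at -43. Windows of 300 bases, from 250 before to 50 after the start, were at hand for 7 members, and 5 of the 7 (71.4%) held AGATAA or TGATAA against 18.6% of 32851 windows of all genes. Within 100 bases before the start, a limit set after the positions were seen, the word starts in 6.43% of all windows. Of the 5 genes with the word, Rhag was higher and Icam4 lower with the CHD4-APR peptide by edgeR (FDR under 0.05), and Rhd, Kel and Ermap did not pass. Over all tested genes 38.3% were called. After the length and GC correction Kel passed and Icam4 did not, where 28.0% of all tested genes were called. CCNCNCCC was found in 3 of the 7 (42.9%) against 49.5% of all windows, the E-box CAGNTG in 2 (28.6%) against 51.4%, and TATAAA in 1 (14.3%) against 13.6%. These matches describe letters only and no binding was measured.

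The surface protein genes did not move as a group in CHD4-APR-treated cells. Rhag, which encodes the Rh-associated glycoprotein, rose 1.55-fold, the genes of glycophorin C, basigin and ICAM-4 fell to 0.867 to 0.890 of their CTRL levels, and Rhd, Ermap, Cd47 and Kel did not pass the test. Genes were compared with edgeR's quasi-likelihood test with Benjamini-Hochberg adjustment over all tested genes (FDR) and a threshold of 0.05. Of the 8 tested members 1 was higher and 3 were lower, against 20.4% of all tested genes that were higher, 17.8% that were lower and 38.3% in either direction. The CTRL and CHD4-APR libraries did not overlap for 5 of the 8, against 49.9% of all genes. The median log2 fold change of the members was -0.012 and that of all tested genes was -0.012. After the length and GC trend was removed 2 members were higher (Rhag and Kel) and 2 lower (Gypc and Cd47), against 11.8% of all genes that were higher, 16.2% that were lower and 28.0% in either direction. Only Rhag and Gypc therefore passed in the same direction with and without this correction.

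**Figure D1:**
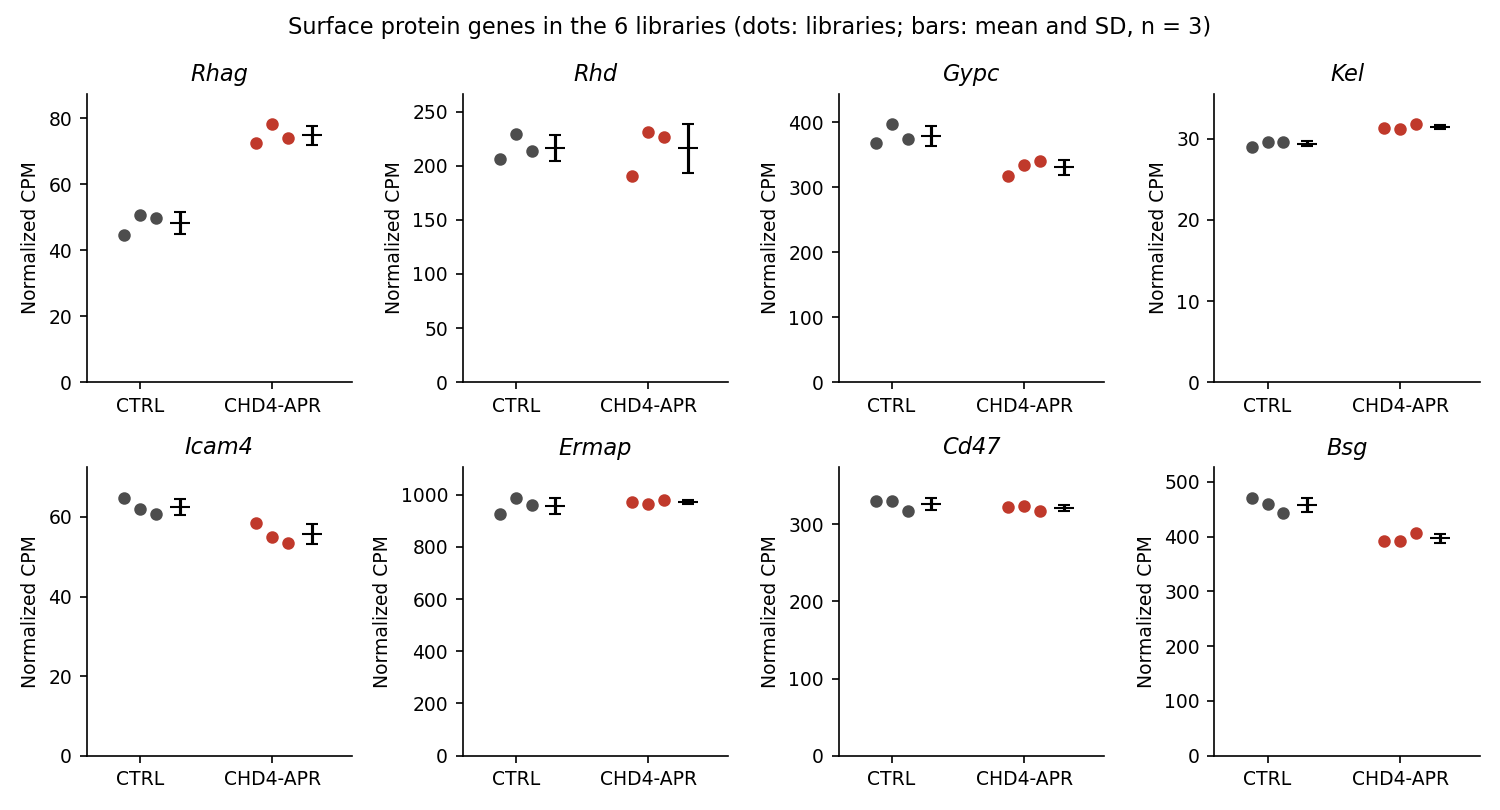
Normalized CPM (y axis, from 0) of the 8 tested genes in each CTRL and CHD4-APR library (dots), with the mean and SD of 3 libraries. Rhag lies at 44.6 to 50.8 in CTRL and 72.5 to 78.1 in CHD4-APR libraries, while Rhd, Ermap and Cd47 overlap between the groups.

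**Figure D2:**
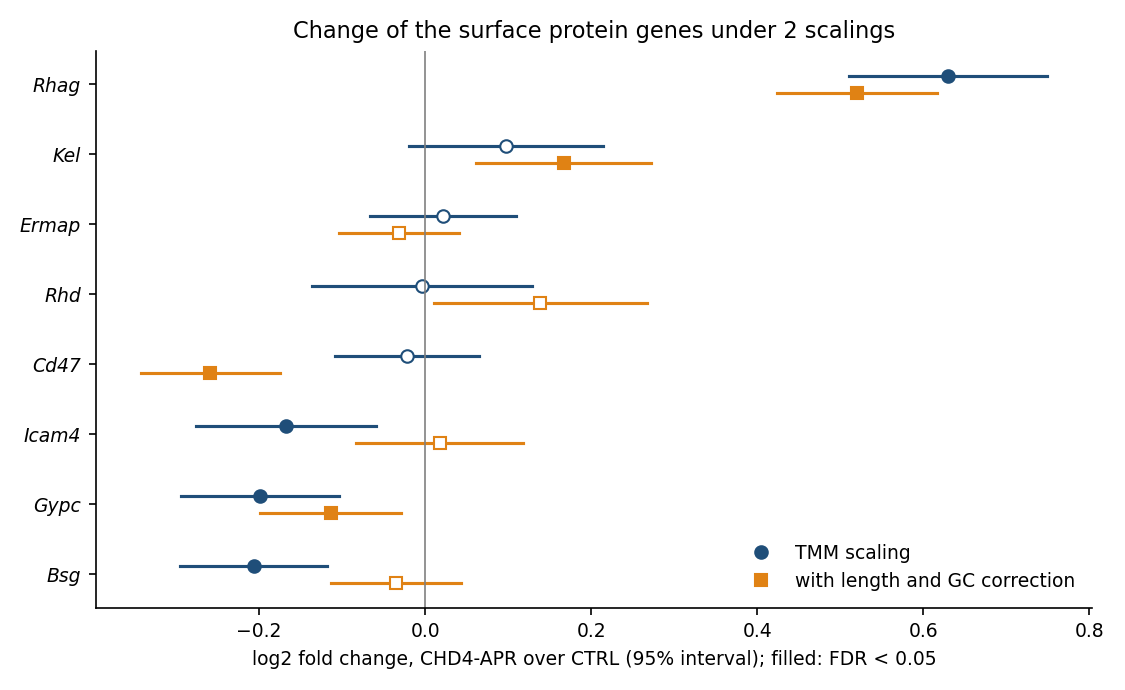
Log2 fold change of each tested gene (x axis, CHD4-APR over CTRL) with its 95% interval, after TMM scaling (circles) and with the length and GC correction (squares), filled where the FDR is under 0.05. Rhag is at 0.63 and 0.52, Gypc at -0.20 and -0.11, and Bsg, Icam4, Kel and Cd47 change their call between the scalings.

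Rhag had the largest change of the 8 tested members, and the 2 genes of the Rh family among them differed. Rhag, whose product is needed for Rh proteins to reach the membrane, lies on chromosome 17 from 40811126 to 40840754 in GRCm38. Its normalized level was 44.6, 50.8 and 49.7 CPM with the CTRL peptide, and 72.5, 78.1 and 74.05 CPM after CHD4-APR. Every CHD4-APR library was above every CTRL library, by more than the SD of 3.30 in CTRL and 2.92 in CHD4-APR (n = 3 each). By edgeR the log2 fold change was 0.63 with a standard error of 0.056 (FDR 1.12e-06). Among all tested genes 446 (3.51%) passed with a change of at least this size, and 367 (2.88%) with a rise of at least this size. In these bulk libraries more cells that express a gene and more of its RNA per cell cannot be told apart. The transcript of Rhag is low in GC (42.2%), and after the length and GC correction its log2 fold change was 0.52 (FDR 2.99e-06 by the same test).

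Rhd, which encodes the mouse Rh blood group protein, lies on chromosome 4 from 134864536 to 134896172. Its level was 207, 229 and 213 CPM in CTRL and 191, 231 and 226 CPM in CHD4-APR libraries. The groups overlapped, and CHD4-APR replicate 1 was the lowest of the 6 libraries. The log2 fold change was -0.0031, with a 95% interval from -0.14 to 0.13 (FDR 0.9745 by edgeR), an interval that does not reach the rise of Rhag. It was 0.083 without CHD4-APR replicate 1 and 0.14 with the length and GC correction (FDR 0.104), neither of which passed. Per kilobase of exon, Rhag stood to Rhd at 0.147, 0.151 and 0.159 in CTRL and at 0.259, 0.230 and 0.223 in CHD4-APR libraries. This ratio does not depend on how libraries are scaled. It was 1.56-fold higher with the CHD4-APR peptide (exact permutation test, two-sided p = 0.1, the smallest that 3 against 3 libraries allow, and 0.1 after Benjamini-Hochberg adjustment over 4 ratios). The log2 difference was 0.64, and 0.38 after the length and GC correction. Of the other members of the Rh family, Rhbg had no read in any library and Rhcg had 11 reads in all 6 together (5 in CTRL and 6 in CHD4-APR libraries).

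Gypc, the gene of glycophorin C, which carries the Gerbich antigens and anchors the membrane skeleton through protein 4.1, was lower with the CHD4-APR peptide. It had 368, 397 and 374 CPM in CTRL libraries against 318, 334 and 339.7 CPM in CHD4-APR libraries. The groups did not overlap, and the mean fell from 379 ± 15.4 to 331 ± 11.3 CPM (SD, n = 3). This was a log2 difference of -0.20 with a standard error of 0.045 (FDR 0.00229 by edgeR), and of -0.11 after the length and GC correction (FDR 0.0446). Gypc kept its call under each of the 16 alternatives, with log2 fold changes from -0.22 to -0.11. Of 11 genes that anchor surface proteins to the membrane skeleton 2 rose and 2 fell, with a median log2 fold change of 0.047, against 20.4% and 17.8% of all tested genes. After the length and GC correction 1 was higher and 5 were lower, against 11.8% and 16.2%. Epb41, the gene of protein 4.1, was named after its values were seen: its log2 fold change was 0.10 (FDR 0.05196 by edgeR) and turned to -0.28 with the correction (FDR 8.73e-05). Epb42, the gene of protein 4.2, rose from 22.8 ± 1.595 to 28.9 ± 0.344 CPM (SD, n = 3), a log2 fold change of 0.34 (FDR 6.46e-04 by edgeR). Dmtn, which encodes the actin-bundling protein dematin, fell by 0.18 on the log2 scale (FDR 0.0215 by edgeR). With the length and GC correction the rise of Epb42 and the fall of Dmtn were kept (0.24 and -0.25). Slc4a1, the gene of the anion exchanger, was named after its value was seen: its groups did not overlap, and its log2 fold change was 0.051 (FDR 0.371 by edgeR), or 0.11 with the correction, where it passed (FDR 0.0462).

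Kel encodes the Kell endopeptidase, a membrane protein that is joined to the XK protein by a disulfide bond. Its CTRL libraries had 29.0, 29.6 and 29.6 CPM and its CHD4-APR libraries 31.3, 31.3 and 31.8 CPM. The groups did not overlap, since replicates differed by an SD of only 0.327 and 0.283 CPM, but the log2 fold change of 0.097 did not pass (95% interval -0.020 to 0.21, FDR 0.183 by edgeR). With the length and GC correction it was 0.17 and passed (FDR 0.0193). Xk rose in the TMM-scaled counts, from 16.2 ± 0.705 to 20.5 ± 1.42 CPM (SD, n = 3), with a log2 fold change of 0.34 (FDR 0.00141), but with the correction it was 0.15 and no longer passed (FDR 0.168). The ratio of Kel to Xk per kilobase was 3.13, 3.44 and 3.44 in CTRL and 2.67, 3.03 and 2.75 in CHD4-APR libraries (exact permutation p = 0.1, two-sided). Its log2 difference of -0.24 became 0.020 with the correction. On the same strand, between the exons of Kel, the annotation holds Gm37527, an unconfirmed transcript that shares no exonic base with Kel and was named after its value was seen. It rose from 0.834 ± 0.264 to 2.07 ± 0.240 CPM (SD, n = 3), a log2 fold change of 1.29 (FDR 3.24e-04 by edgeR). This rests on few reads, 25, 55 and 33 counts in CTRL and 103, 78 and 98 in CHD4-APR libraries. Its value with the correction is not given here.

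ICAM-4, the carrier of the Landsteiner-Wiener antigen, binds integrins and takes part in contacts between erythroblasts and macrophages. Icam4 lies on chromosome 9 from 21029373 to 21030595. It had 64.8, 61.9 and 60.9 CPM in CTRL and 58.5, 55.0 and 53.6 CPM in CHD4-APR libraries, with no overlap. The difference was -0.17 on the log2 scale with a standard error of 0.051 (FDR 0.0165 by edgeR). This call was lost without CHD4-APR replicate 2 (-0.16, FDR 0.0763) and without CHD4-APR replicate 3 (-0.13, FDR 0.0996). With the length and GC correction the log2 fold change turned to 0.018 (FDR 0.827), and Icam4 has one of the higher GC contents among the members, at 57.4%. An antisense gene, Gm47079, is annotated over 100% of its exonic bases and is not analysed here. The strand setting of the counts is not given, so whether they hold reads of both strands is not known. Of a list of 11 binding partners of CD47 and ICAM-4, 5 were tested, all of them integrin genes, and 3 rose and 0 fell, with a median log2 fold change of 0.18, against 20.4% of all tested genes that were higher. The other two, Itgb2 and Itgb3, had log2 fold changes of -0.090 and 0.062 and did not pass (FDR 0.104 and 0.668 by edgeR). Itgav rose from 52.0 ± 4.63 to 77.5 ± 1.78 CPM, Itga4 from 75.9 ± 5.67 to 106 ± 3.99 CPM and Itgb1 from 78.3 ± 1.48 to 88.9 ± 1.96 CPM (SD, n = 3). Their log2 fold changes were 0.57, 0.48 and 0.18 by edgeR (FDR 3.05e-06, 8.06e-06 and 0.00408), and of these only Itgav passed with the correction, at 0.29. The ratio of Icam4 to Itga4 per kilobase was 11.8, 9.86 and 9.67 in CTRL and 7.12, 6.27 and 6.51 in CHD4-APR libraries (exact permutation p = 0.1, two-sided), a log2 difference of -0.65 that shrank to -0.074 with the correction. Icam1, a paralog of Icam4, rose from 6.76 ± 1.06 to 9.50 ± 0.284 CPM (SD, n = 3) and by 0.50 on the log2 scale (FDR 0.00160), and by 0.58 with the correction. It was the 1 gene called among 10 tested paralogs of the members, whose median log2 fold change was -0.071, where 38.3% of all tested genes were called. With the correction 1 paralog was higher and 1 lower, where 28.0% of all were called.

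Ermap encodes an erythroid membrane protein of the butyrophilin type that carries the Scianna antigens, and had the most reads of the members. It had 926, 986 and 961 CPM in CTRL and 972, 964 and 980.5 CPM in CHD4-APR libraries. The 3 CHD4-APR libraries lay within the range of the CTRL libraries. The log2 fold change was 0.021, with a 95% interval from -0.066 to 0.11 (FDR 0.720 by edgeR), and -0.031 with the correction.

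CD47 is the signal that keeps macrophages from engulfing a red cell. Cd47, on chromosome 16 from 49800533 to 49915010, had 331, 331 and 317 CPM in CTRL and 323, 324 and 317 CPM in CHD4-APR libraries, and the groups overlapped. The log2 fold change was -0.022, with a 95% interval from -0.11 to 0.064 (FDR 0.713 by edgeR). Among the members Cd47 has the longest exonic sequence, 6276 bases, and 42.2% GC, and the median log2 fold change of the 3169 genes with the longest exonic sequence was 0.16. With the length and GC correction Cd47 was lower, at -0.26 (FDR 1.72e-04 by the same test). Its receptor gene Sirpa and its ligand gene Thbs1 had no read in any library, so no ratio was formed.

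Basigin, the carrier of the Ok antigen, escorts the lactate transporter MCT1 to the membrane. Bsg, on chromosome 10 from 79704491 to 79711969, had 469.8, 459.6 and 444 CPM in CTRL and 392.2, 391 and 407 CPM in CHD4-APR libraries. All CHD4-APR libraries were below all CTRL libraries, with a log2 difference of -0.21 and a standard error of 0.042 (FDR 0.00105 by edgeR). With the length and GC correction it was -0.035 (FDR 0.534) and no longer passed, and Bsg has the highest GC content of the members, 57.6%. Slc16a1, the gene of MCT1, rose from 37.9 ± 0.722 to 58.2 ± 1.13 CPM (SD, n = 3). Its libraries had 38.8, 37.5 and 37.5 CPM with the CTRL peptide and 56.9, 59.1 and 58.4 CPM after CHD4-APR. Its log2 fold change of 0.62, with a standard error of 0.050 (FDR 6.60e-07 by edgeR), stayed at 0.45 with the correction (FDR 1.09e-05). The ratio of Bsg to Slc16a1 per kilobase was 29.6, 29.9 and 28.9 in CTRL libraries and 16.8, 16.1 and 17.0 in CHD4-APR libraries. It was 0.565 times as high with the CHD4-APR peptide (exact permutation p = 0.1, two-sided), and the log2 difference was -0.82, or -0.49 with the correction. Of 7 tested genes in the list of basigin partners and paralogs 2 rose and 3 fell, with a median of -0.17, where 38.3% of all tested genes were called. With the correction 1 was higher and 3 were lower, where 28.0% of all were called. Ppib and Ppia, which encode cyclophilins that bind basigin, fell by 0.23 and 0.18 on the log2 scale (FDR 0.00157 and 0.00471), and by 0.20 and 0.17 with the correction.

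**Figure D3:**
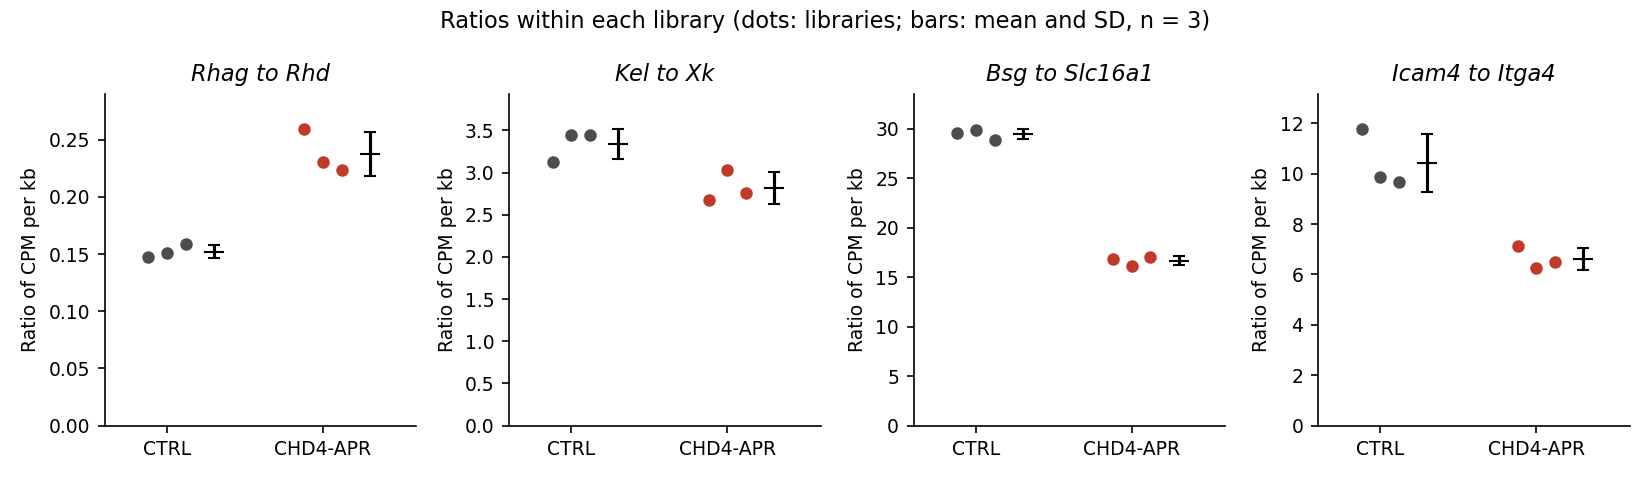
Ratio of normalized CPM per kilobase between partner genes within each library (dots), with the mean and SD of 3 libraries, on axes from 0. Rhag to Rhd moves from 0.152 to 0.238 and Bsg to Slc16a1 from 29.4 to 16.6. In all 4 ratios the CTRL and CHD4-APR libraries do not overlap, which also holds for 49.9% of all single genes tested. With the length and GC correction the log2 differences are 0.38 for Rhag to Rhd and -0.49 for Bsg to Slc16a1. They are 0.020 for Kel to Xk and -0.074 for Icam4 to Itga4.

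Aqp1, the gene of the water channel that carries the Colton antigens in red cells, was practically without reads. It had 0 counts in all 3 CTRL libraries and in CHD4-APR replicates 1 and 3, and 1 count in CHD4-APR replicate 2. A count of 0 allows up to 3 counts, or 0.0608 to 0.0725 CPM in a library, which covers counting error only, and no fold was formed. Of the other aquaporins in the paralog list, Aqp11 was the most abundant at 14.7 CPM in CTRL libraries, and Aqp4 and Aqp5 had no read.

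Per kilobase of exon, the members spanned a range from Kel, at 10.6 ± 0.118 CPM per kb in CTRL libraries (SD, n = 3), to Bsg, at 252 ± 7.21. Ermap followed Bsg at 181 ± 5.64, then Gypc at 163 ± 6.59, Rhd at 136 ± 7.28, Icam4 at 56.3 ± 1.82, Cd47 at 52.0 ± 1.28 and Rhag at 20.7 ± 1.41. In CTRL libraries no neighbours in this order overlapped. In CHD4-APR libraries Gypc (142 ± 4.83) overlapped Rhd (136 ± 13.95), and Icam4 (50.2 ± 2.28) overlapped Cd47 (51.2 ± 0.606). Rhag rose to 32.0 ± 1.25 but kept its place between Cd47 and Kel. Of all tested genes with a known length, 1.73% were at or above the level of Bsg and 33.8% at or above that of Kel in CTRL libraries.

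**Figure D4:**
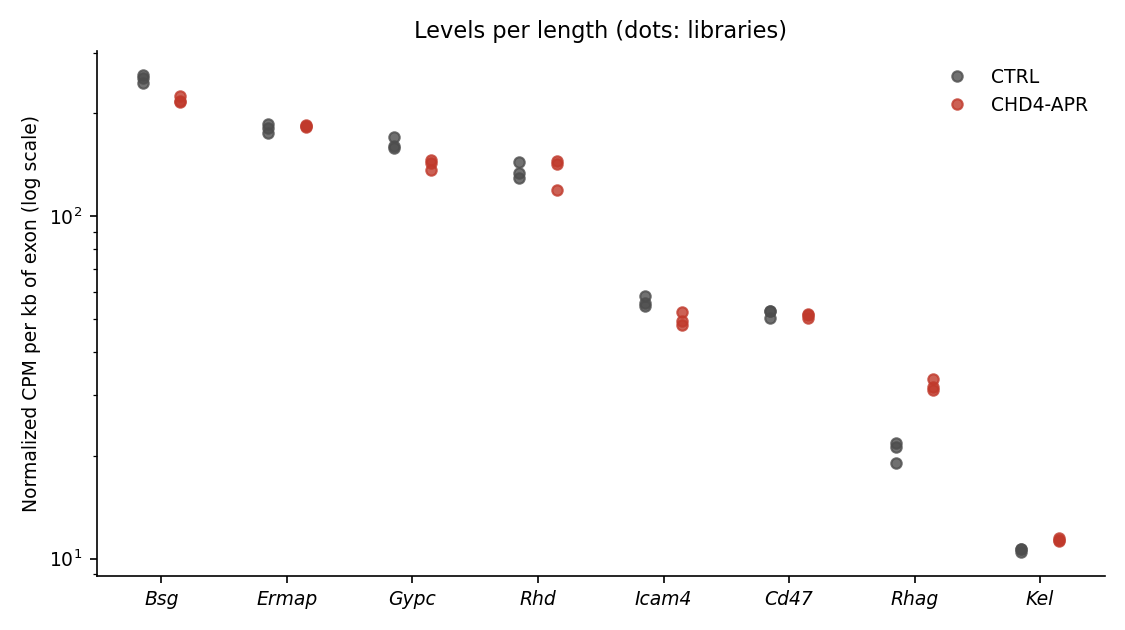
Normalized CPM per kilobase of exon (y axis, log scale) of the 8 tested genes in every CTRL (grey) and CHD4-APR (red) library, ordered by the CTRL mean. Levels run from about 252 for Bsg to 10.6 for Kel, and Rhag moves up to 32.0 without passing Cd47.

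Beyond the members, a list of 25 other blood group carriers gave 21 tested genes, of which 5 rose and 1 fell, with a median log2 fold change of 0.051, against 20.4% and 17.8% of all tested genes. After the length and GC correction 3 were higher and 4 were lower, against 11.8% and 16.2%. Cd55, the complement regulator that carries the Cromer antigens, rose by 0.29 and Abcg2, the porphyrin exporter of the Junior group, by 0.23 on the log2 scale (FDR 0.00683 and 4.83e-04 by edgeR). Neither rise was kept with the length and GC correction, where Cd55 was at 0.12 and Abcg2 turned to -0.11 (FDR 0.0392). The 1 carrier that fell, Abcb6, was named after its value was seen. It was at -0.20 (FDR 0.0111 by edgeR) and kept its call with the correction, at -0.17 (FDR 0.0242). The enzymes that build blood group sugars could not be compared, because 0 of 8 passed the filter on low counts and the most abundant, B4galnt2, had 0.111 CPM in CTRL libraries. The lists of carriers, anchors, basigin partners, CD47 and ICAM-4 partners and paralogs held 21, 11, 7, 5 and 10 tested genes. Over all these lists 19 genes passed the test, where 38.3% of all tested genes were called and 28.0% with the correction. Of these 19, 9 kept their call and direction with the correction, 8 lost the call and 2, Abcg2 and Nptn, were called in the other direction. Another 9 genes passed with the correction alone, 3 higher and 6 lower.

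**Figure D5:**
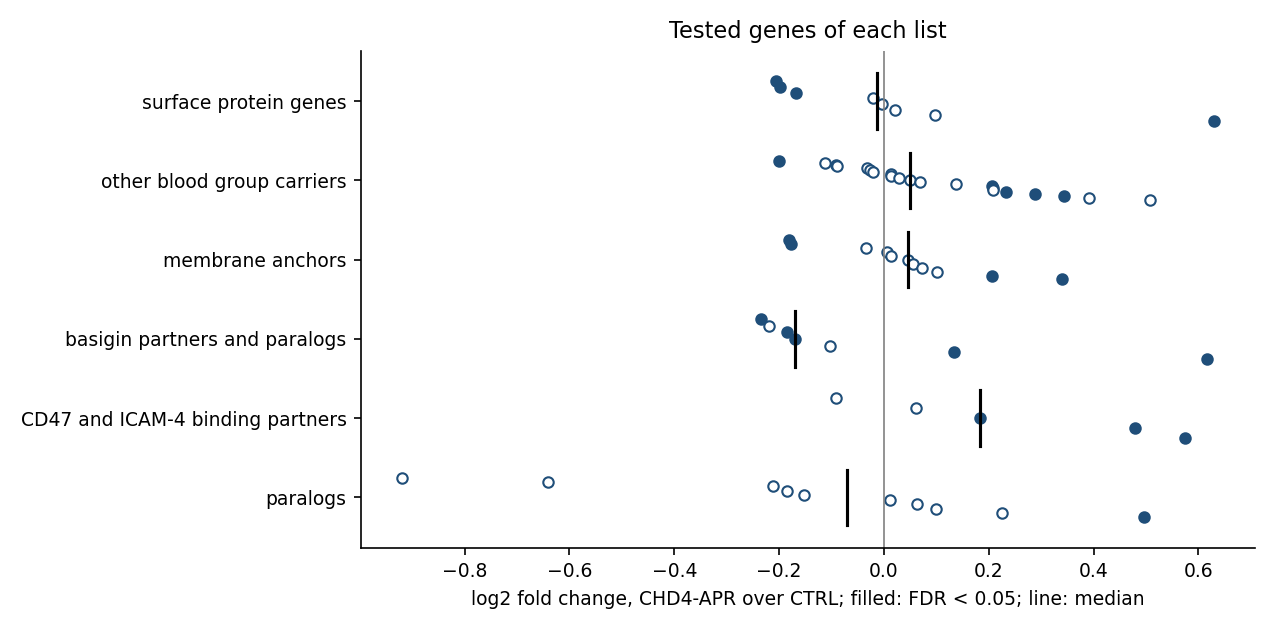
Log2 fold change (x axis, CHD4-APR over CTRL) of every tested gene of the surface protein genes and of the fixed lists, filled where the FDR is under 0.05, with the median of each list as a line. Medians run from -0.17 for basigin partners and paralogs to 0.18 for the partners of CD47 and ICAM-4, and Rhag stands at 0.63 apart from the other members.

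The profile of Rhag over the 6 libraries was compared with those of 10099 other protein-coding genes by the Euclidean distance of log2 CPM, each centred on its own mean. Kat6a, a histone acetyltransferase gene, was the nearest at 0.020, followed by Ddx3x, an RNA helicase gene, at 0.052 and Ints6, of the Integrator complex, at 0.056. Their log2 fold changes were 0.63, 0.62 and 0.59, close to that of Rhag, which such a distance over 2 groups of libraries selects for.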

How the data were processed

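RNA was poly(A)-selected from G1E-ER4 cells treated with the CTRL or CHD4-APR peptide and then tamoxifen. The authors trimmed reads with Cutadapt, mapped them to GRCm38 with STAR 2.7.10a and summarised them over Ensembl genes with featureCounts. The table deposited by the authors holds raw counts per gene. The setting for strand and for reads that match several genes is not given in the sources used here. Another 2 columns match no sample and were not used. GENCODE M21 (GRCm38) named 48349 of 48709 identifiers and gave exonic length (union of exons) and the GC content of the longest transcript, known for 12677 tested genes.

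Counts were filtered with filterByExpr, scaled by TMM and compared with edgeR 4.0.16 in R 4.3.3 (quasi-likelihood F-test, no block, Benjamini-Hochberg over 12722 genes, threshold 0.05). Standard errors came from the F statistic. The study used DESeq2, which was an alternative here (1.42.0) beside limma 3.58.1. In the length and GC correction each library's log2 CPM (prior count of 2) were smoothed on length and GC content with mgcv 1.9.3 and passed to edgeR as offsets. Ratios were compared by exact permutation tests over libraries. Procedures were tested on simulated counts. Pairs of replicates differed by more than sampling noise. The replicate numbers did not pair the samples (correlations of deviations 0.070, 0.055 and -0.035).

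Members, lists and tests were chosen with earlier results of these data known. Named genes are the 9 members, the 3 largest called changes of each list, the genes of the ratios, the leading gene of each marker list, genes overlapping a member and the 3 nearest profiles to Rhag, apart from those said to be named later and from some results that are not reported here. A ratio of Cd47 to Sirpa was planned and not formed.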

Additional observations from a re-analysis of the deposited data

How the results depend on the processing

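Rhag and Gypc passed in the same direction in all 16 alternatives run on them, Rhag with log2 fold changes from 0.52 to 0.67. The number of members called was 3 to 4 with each library left out, where 3703 to 4928 of 12927 to 12973 tested genes were called. It was 5 with the length and GC correction and a replicate block, where 4051 of 12722 were called. With the correction, and with the correction and the block, Rhd turned to 0.14 and 0.14 (FDR 0.00378 in the latter), Icam4 to 0.018 and 0.017 and Ermap to -0.031 and -0.031. There Cd47 was lower, at -0.26 in both, Kel was higher, at 0.17 in both, and Bsg lost its call. Members poor in GC or long moved down with the correction, and members rich in GC moved up. The source of the trend that it removes was not tested. Rhd also reversed to 5.7e-04 with DESeq2, and its values with 1 library left out ran from -0.052 to 0.083. Ermap lay between -0.0025 and 0.042, its low end without CTRL replicate 1. The ratio of Kel to Xk reversed to 0.020 with the correction, an alternative chosen after seeing the data.

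With the replicate block alone 5214 genes were called against 4871, and 4 members. The block did not change the call of a member without the correction. Called paralogs were 2 in place of 1 with limma-voom, with the block, with the correction, with both, and without CTRL replicate 2 (1 to 2 with each library left out). Called partners of CD47 and ICAM-4 were 1 in place of 3 with the correction, with or without the block. The lists held 10 tested paralogs and 5 tested partners. Of all 12722 tested genes 4829 were called with limma-voom, 5214 with the block, 3568 with the correction and 4051 with both. Without CTRL replicate 2 it was 4928 of 12927. The cause of the changes in called paralogs and partners was not tested. With the longest transcript as length the CTRL levels were 299.99 CPM per kb for Bsg, 210.4 for Ermap, 174 for Gypc, 62.1 for Cd47, 60.8 for Icam4 and 11.6 for Kel, so Cd47 and Icam4 changed places. The lowest count of a tested member was 1227 (Kel, CTRL replicate 3), and Aqp1 could not be assessed at this depth.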
